A study of Mus musculus with 12 samples.

Results

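The proliferins are a small set of closely related mouse genes, and the array carried 3 probes for the 4 genes considered here, Prl2c2, Prl2c3, Prl2c4 and Prl2c5. Probes were taken by the platform's gene symbol, old or current, which gave 1 probe each for Prl2c3, Prl2c4 and Prl2c5 and 0 for Prl2c2, out of 25697 probes for 16593 named genes on the array. The genes were singled out because an earlier comparison of these same tumours gave Prl2c3 as its single call among tumours without Eif2s3y signal, 0.00853% of the 11721 probes tested. Levels by tumour type are therefore a description with no p-value, and nothing is read from whether a proliferin probe is among the calls between tumour types.

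Total RNA came from 6 KHR and 6 KHR-NICD mouse oral tumours, and each was read on its own single-colour array (Illumina MouseRef-8 v2). The mice were first-generation offspring of FVB and C57BL/6 parents, and all 12 tumours grew for 21 days before they were frozen in Trizol. NICD is the usual abbreviation of the Notch intracellular domain, the active fragment released when a Notch receptor is cleaved. The labels do not spell out KHR, the promoter or cell type that drove any transgene, the age of the mice, or whether any tumours shared an animal. Where they did, p-values would reflect only the variation among these samples.

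Proliferins are secreted glycoproteins of the prolactin and growth hormone family, made in quantity by trophoblast giant cells of the mouse placenta. They were also found as transcripts that growth factors induce in cultured mouse fibroblasts, and the protein binds the cation-independent mannose 6-phosphate receptor, Igf2r, and promotes migration of endothelial cells. The proliferin promoter is a classical model of joint control by AP-1 factors and the glucocorticoid receptor, and proliferin transcripts are known from wounded mouse skin.

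The likeness of these genes to one another is shown here only for the bases around the gene start. RefSeq windows were at hand for Prl2c3 and Prl2c5. Each runs from 250 bases before to 50 bases after the gene start, as the sequence table sets it. Most of each window lies before the gene start, so it is no measure of how a probe for one gene may read the RNA of another. Capitals mark bases that differ between both windows or lie opposite a gap, and the sequences are from RefSeq on GRCm38.p6, at chr13:12800030-12800329 on the minus strand for Prl2c3 and chr13:13182466-13182765 on the plus strand for Prl2c5.
Prl2c3: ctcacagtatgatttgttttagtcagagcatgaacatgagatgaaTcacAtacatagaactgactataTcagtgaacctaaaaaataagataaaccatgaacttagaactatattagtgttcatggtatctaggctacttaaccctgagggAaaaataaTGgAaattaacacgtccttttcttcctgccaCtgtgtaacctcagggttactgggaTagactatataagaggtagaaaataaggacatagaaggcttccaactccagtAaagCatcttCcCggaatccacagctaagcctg
Prl2c5: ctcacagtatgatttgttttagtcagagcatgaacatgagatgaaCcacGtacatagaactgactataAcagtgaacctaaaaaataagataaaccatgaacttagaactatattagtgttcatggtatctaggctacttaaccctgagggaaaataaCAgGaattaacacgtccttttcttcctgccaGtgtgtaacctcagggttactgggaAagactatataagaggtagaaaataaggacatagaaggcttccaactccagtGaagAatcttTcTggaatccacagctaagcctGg
Of 301 aligned columns, 287 (95.3%) were identical, 12 were mismatches and 2 held a gap. In the RefSeq gene order on chromosome 13, Prl2c2 lay between Prl2c3 and Prl2c5.

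A few short motifs were looked up in both windows, on both strands, because proliferin promoters are known for AP-1 and glucocorticoid control and because NICD acts through the DNA-binding factor RBPJ. The AP-1 core with any middle base, TGANTCA, occurred 1 time in the Prl2c3 window, as TGAATCA starting at position -209 from the gene start, and 0 times in the Prl2c5 window. That motif was present in 7.81% of 32851 mouse promoter windows of the same length. The stricter AP-1 consensus TGACTCA, which TGANTCA includes, occurred 0 times in either window and in 5.20% of all windows. The glucocorticoid receptor hexamer AGAACA was found 0 times in either window, against 19.0% of all windows. The RBPJ core TGGGAA occurred 0 times in the Prl2c3 window and 1 time in the Prl2c5 window, at position -41, and in 25.6% of all windows. A TATA box, TATATAA, lay at position -30 in the Prl2c3 window and at -31 in the Prl2c5 window, and was present in 3.24% of all windows. These are matches of letters only.

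The platform listed the Prl2c4 probe under an Entrez identifier that the RefSeq gene table does not hold, and that table gives Prl2c4 as an older name of Prl2c3. By that table the Prl2c3 and Prl2c4 probes are named for the same gene. Probe sequences were not used here, so which of the paralogues each probe binds, and how far probes share targets, was not tested. Each probe is called below by the platform's symbol.

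Prl2c3 and Prl2c4 signal was present in 10 of the 12 tumours and differed widely among the KHR tumours. It was near background in KHR tumours 1 to 3, highest in KHR tumours 4 and 6, and intermediate in every KHR-NICD tumour, while Prl2c5 was at background in all 12 tumours. A probe is called detected on an array when its deposited detection p, which sets it against that array's background, is under 0.05.

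The scanner signal of the Prl2c3 probe was 141, 161, 171, 598, 350 and 745.5 intensity units in KHR tumours 1 to 6. In KHR-NICD tumours 1 to 6 it was 238, 347, 292, 338, 360 and 269 units. KHR tumours 4 and 6 stood above every other tumour on this scale before any normalization, and KHR tumours 1 to 3 stood below every other. The standard error over the beads of this probe was 1.42% to 3.29% of the signal, so the gaps between these sets were far wider than the error of a single array. KHR tumour 5, at 350 units with a bead standard error of 9.23, lay among KHR-NICD tumours 2 (347, error 7.45), 4 (338, error 8.87) and 5 (360, error 5.11), and it differed from each of these 3 by less than the sum of the bead errors.

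After background correction and quantile normalization, the Prl2c3 level was 4.92, 4.89, 5.33, 9.26, 8.04 and 8.99 log2 units in KHR tumours 1 to 6. In KHR-NICD tumours 1 to 6 it was 6.76, 7.85, 7.31, 7.94, 7.94 and 7.07. All 6 KHR-NICD levels lay between those of KHR tumours 1 to 3 and those of KHR tumours 4 to 6. The upper edge of that ordering was thin, since KHR tumour 5 exceeded the highest KHR-NICD tumour by only 0.10 log2 units, and its scanner signal was below that of KHR-NICD tumour 5. The lower edge was wider, with 1.43 log2 units from KHR tumour 3 up to KHR-NICD tumour 1.

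Detection followed the levels. The Prl2c3 detection p was 0.147 in KHR tumour 1 and 0.178 in KHR tumour 2, so the probe was not detected there. It was 0.0439 in KHR tumour 3, just under the threshold, and 0 in the other 9 tumours. The probe was thus detected in 4 KHR tumours and in all 6 KHR-NICD tumours, and a level in KHR tumours 1 and 2 is not distinguishable from background.

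**Figure D1:**
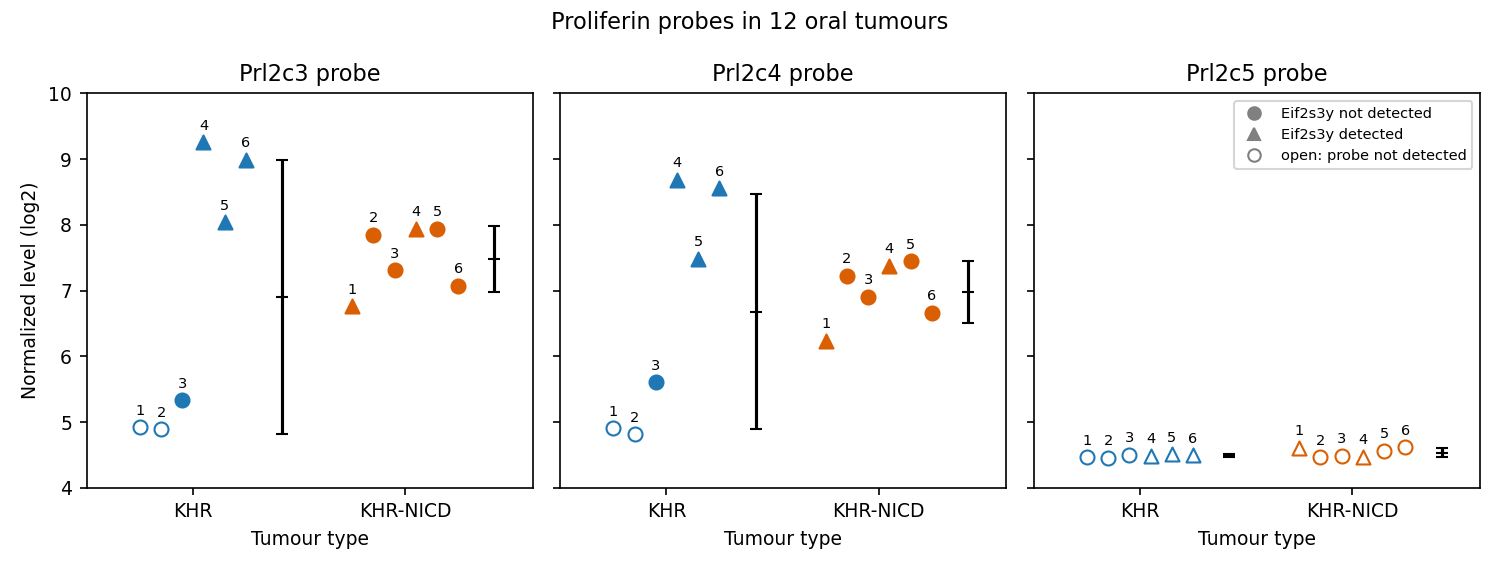
Normalized log2 levels of the 3 proliferin probes in each tumour, numbered as in the labels, with KHR in blue and KHR-NICD in orange; bars show the mean and SD of each group of 6. Triangles mark tumours in which Eif2s3y was detected and open symbols arrays on which the proliferin probe was not detected. For Prl2c3 and Prl2c4 the KHR tumours split into a low and a high set with KHR-NICD between, and Prl2c5 stays at 4.46 to 4.62 throughout.

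The Prl2c4 probe gave 141, 158, 182, 439, 277 and 594 intensity units in KHR tumours 1 to 6. The KHR-NICD tumours gave 204, 271, 253, 273, 295 and 236 units in the same order. As for Prl2c3, KHR tumours 4 and 6 were highest and KHR tumours 1 to 3 lowest, and the signal of KHR tumour 5 lay within the KHR-NICD range. The bead standard error was 2.39% to 4.74% of the signal for this probe.

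Normalized Prl2c4 levels were 4.91, 4.82, 5.61, 8.69, 7.49 and 8.56 log2 units in KHR tumours 1 to 6. They were 6.24, 7.23, 6.91, 7.38, 7.45 and 6.67 in KHR-NICD tumours 1 to 6. The KHR-NICD tumours again fell between the low and the high KHR tumours, with a gap of 0.63 log2 units at the lower edge and 0.04 at the upper edge. Detection p was 0.157 and 0.231 in KHR tumours 1 and 2 and 0.0150 in KHR tumour 3, so Prl2c4 too was detected in 4 KHR tumours and in all 6 KHR-NICD tumours.

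Prl2c5 was not detected in any of the 12 tumours. Its signal was 121 to 148 intensity units and its detection p 0.484 to 0.898, with 27 to 52 beads behind each value. No fold is given for it, because both tumour types were at background. The probe of Prl2c1, a related gene outside the named set, was detected in 1 of 12 tumours, KHR-NICD tumour 5, with levels of 4.61 to 5.50 over all tumours.

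**Figure D2:**
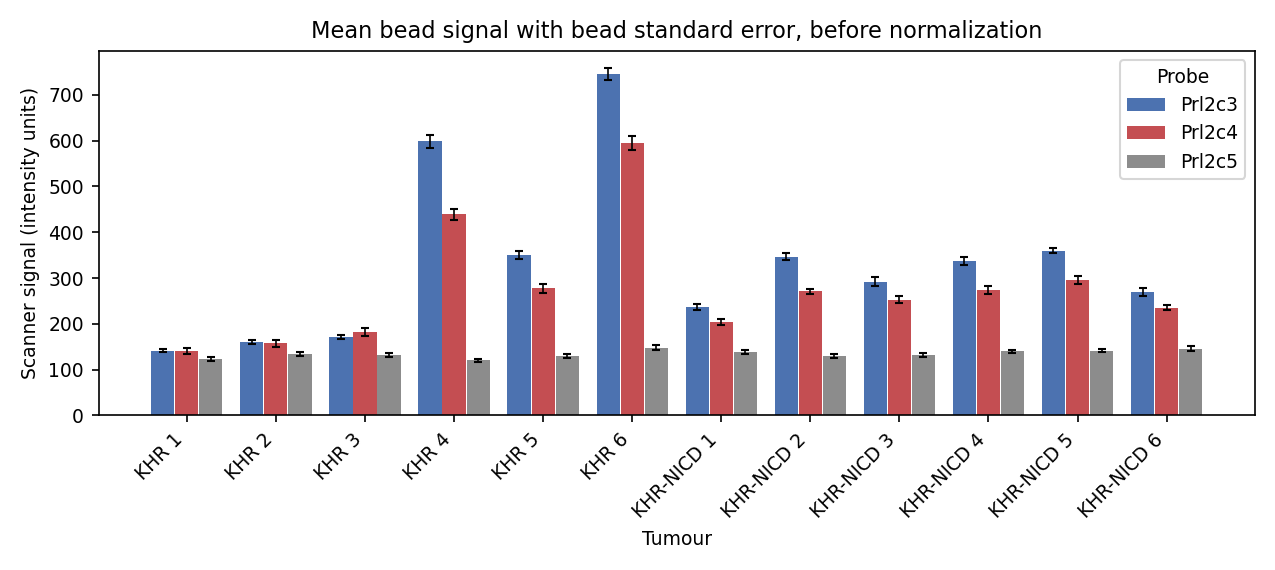
Scanner signal of the 3 proliferin probes in each tumour before normalization, in linear intensity units from 0; bars are the mean over beads and error bars the standard error over beads. Prl2c3 reaches 598 and 745.5 units in KHR tumours 4 and 6, and Prl2c5 stays between 121 and 148 units in all tumours.

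Averaged over each tumour type, the proliferin probes did not separate KHR-NICD from KHR. The Prl2c3 mean was 6.91 ± 2.08 (SD, n = 6) in KHR and 7.48 ± 0.50 (SD, n = 6) in KHR-NICD tumours, a difference of 0.57 log2 units (standard error 0.76). The Prl2c4 mean was 6.68 ± 1.79 (SD, n = 6) in KHR and 6.98 ± 0.47 (SD, n = 6) in KHR-NICD tumours, a difference of 0.30 (standard error 0.66). Both differences were smaller than the spread among the KHR tumours, and the KHR-NICD range lay inside the KHR range for both probes.

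For comparison, limma's moderated test over all 11721 probes detected on at least 6 arrays, with Benjamini-Hochberg adjustment, called 8 probes at an adjusted p under 0.05, which is 0.0683% of those tested. Of the 3 proliferin probes 2 passed the detection filter and 0 were among the calls. The median difference over all probes was 0.01 log2 units. These members were chosen from this contrast, and nothing is read from the count.

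The 12 tumours also differ in signal of Eif2s3y, a gene of the Y chromosome, which was detected in KHR tumours 4 to 6 and KHR-NICD tumours 1 and 4. Its levels there were 8.18 to 9.11 log2 units, against 4.45 to 4.92 in the other 7 tumours. A probe of Xist, the RNA that coats the inactive X chromosome, was detected in those other 7 tumours, at 6.62 to 7.22, and was not detected in the 5 with Eif2s3y, at 4.58 to 5.11. A second, dimmer Xist probe was detected in 3 of those 7 tumours, KHR 2, KHR 3 and KHR-NICD 3, and in 0 of the 5. The split into KHR tumours 1 to 3 and KHR tumours 4 to 6 therefore coincided with this difference and with the order of the replicate numbers, and these cannot be told apart among KHR tumours.

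Within the 7 tumours without Eif2s3y, the proliferin probes were higher in KHR-NICD. The Prl2c3 mean was 5.05 ± 0.24 (SD, n = 3) in KHR and 7.54 ± 0.42 (SD, n = 4) in KHR-NICD tumours, a difference of 2.50 log2 units (standard error 0.23), or 5.64-fold. The Prl2c4 mean was 5.11 ± 0.43 (SD, n = 3) in KHR and 7.06 ± 0.35 (SD, n = 4) in KHR-NICD tumours, a difference of 1.95 (standard error 0.24), or 3.87-fold. The tumour types did not overlap for either probe. Among all tested probes, 7.44% had KHR-NICD tumours above KHR tumours without overlap in these 7 tumours, and this is the contrast from which the genes were chosen. The folds rest on KHR levels at or near background, with each probe detected on 1 of these 3 KHR arrays, and they therefore depend on the background correction.

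Within the 5 tumours with Eif2s3y the order was turned. The Prl2c3 mean was 8.77 ± 0.64 (SD, n = 3) in KHR and 7.35 ± 0.83 (SD, n = 2) in KHR-NICD tumours, a difference of -1.41 (standard error 0.46), or 2.66-fold higher in KHR. The Prl2c4 mean was 8.25 ± 0.66 (SD, n = 3) in KHR and 6.81 ± 0.81 (SD, n = 2) in KHR-NICD tumours, a difference of -1.44 (standard error 0.46), or 2.71-fold higher in KHR. The types again did not overlap, as was so, with KHR-NICD lower, for 22.9% of all tested probes in these 5 tumours. By scanner signal KHR tumour 5 also exceeded both of these KHR-NICD tumours, at 350 units against 238 and 338 for Prl2c3, the latter pair within about the sum of their bead errors.

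The KHR-NICD tumours with and without Eif2s3y did not differ in the way the KHR tumours did. KHR-NICD tumours 1 and 4 held the lowest and the highest Prl2c3 level of their type, 6.76 and 7.94. The 4 KHR-NICD tumours without Eif2s3y had levels of 7.07 to 7.94, which lie within those limits. KHR-NICD tumour 4 was close to KHR tumour 5, at 8.04, and KHR-NICD tumour 1 was lower. Only 2 KHR-NICD tumours had Eif2s3y signal, and its relation to the proliferin level was not tested.

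The ordering of low KHR, KHR-NICD and high KHR tumours was uncommon on the array. All 6 KHR-NICD tumours lay between KHR tumours 1 to 3 and KHR tumours 4 to 6 for 11 of 11721 probes, or 0.0938%, and Prl2c3 and Prl2c4 were 2 of these 11. The opposite non-overlapping order in both sets, above KHR without Eif2s3y and below it with Eif2s3y, was met by 123 probes, or 1.05%. This ordering was noticed in the members' own values, and the counts only place it among the other probes.

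The width of the KHR range was the main feature of both detected probes. Prl2c3 spanned 4.37 log2 units over the KHR tumours after normalization, up to KHR tumour 4, and Prl2c4 spanned 3.87. The low end of both ranges lies in KHR tumours 1 and 2, where neither probe was detected, so the spans have no exact fold. By scanner signal, before background was removed, the lowest was KHR tumour 1 and the highest KHR tumour 6, with a ratio of 5.27 for Prl2c3 and 4.22 for Prl2c4. The KHR-NICD tumours spanned 1.18 log2 units for Prl2c3 and 1.21 for Prl2c4. The size of the KHR range therefore depends on the scale, but on each scale it was the KHR tumours that were spread.

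Set against all probes, the KHR spread was extreme and the KHR-NICD spread was large. The SD over KHR tumours, 2.08 for Prl2c3 and 1.79 for Prl2c4, exceeded that of 99.9% and 99.8% of kept probes, with 9 and 21 probes more variable, where the median SD of all probes was 0.22. The SD over KHR-NICD tumours, 0.50 and 0.47, exceeded that of 95.3% and 94.0% of kept probes, where the median SD was also 0.22. The ratio of the KHR to the KHR-NICD SD was 4.13 for Prl2c3 and 3.82 for Prl2c4, above 99.2% and 98.8% of kept probes.

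**Figure D3:**
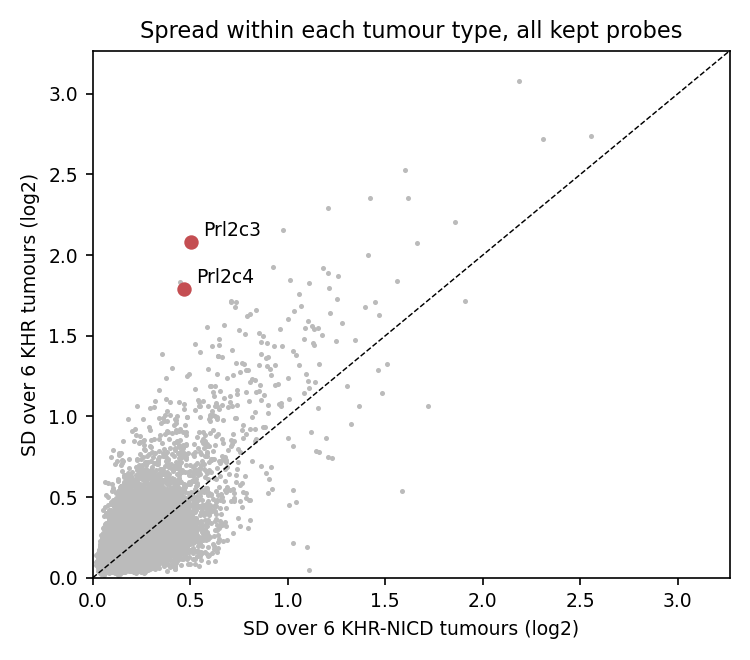
Spread of every kept probe (grey points) within each tumour type, as the SD over 6 KHR-NICD tumours (x axis, log2 units) and over 6 KHR tumours (y axis, log2 units); the dashed line marks equal spread. Prl2c3 lies at 0.50 and 2.08 and Prl2c4 at 0.47 and 1.79, well above the line.

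The Prl2c3 and Prl2c4 probes gave the same order of tumours almost throughout. Over 12 tumours Pearson's r was 0.992 and Spearman's rho 0.993, each with a permutation p of 1e-05, the smallest that the resamples can give, and with 1 pair of detected probes the adjusted p is the same. After the group means were taken off, which removes the overall difference between tumour types, r was 0.995. That step leaves the split among KHR tumours in place, and with it much of the contrast without Eif2s3y from which the genes were chosen. The values of r and p over 12 tumours therefore still carry that contrast. Because the tumours fall into separate sets, the relation was also taken without KHR tumours 1 to 3. Over the other 9 tumours r was 0.995 and rho 0.983, with exact permutation p of 5.51e-06 and 4.96e-05, and r was 0.990 without the pair of tumours farthest from the median. Within the 6 KHR-NICD tumours alone, r was 0.987 and rho 0.943, with exact permutation p of 0.00278 and 0.0167.

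The offset between both probes was nearly constant wherever they were detected clearly. The Prl2c4 value minus the Prl2c3 value was -0.62 to -0.40 log2 units in the 9 tumours other than KHR 1 to 3, with a mean of -0.51 and an SD of 0.08. In KHR tumours 1, 2 and 3 it was -0.02, -0.07 and 0.28, where both probes were at or near background. Probes differ in binding, so the offset itself is no measure of one RNA against another. Whether both probes read 1 RNA, or cross-hybridised to RNAs of several paralogues, was not tested.

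**Figure D4:**
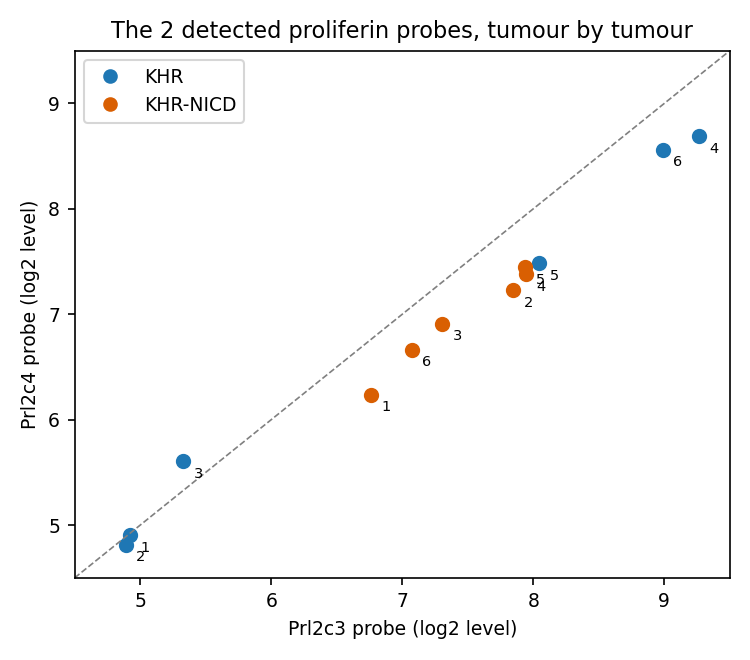
Level of the Prl2c4 probe (y axis, log2 units) against the Prl2c3 probe (x axis, log2 units), 1 point per tumour with its replicate number; the dashed line marks equal values. The 9 tumours with clear signal lie on a line parallel to it, offset by -0.62 to -0.40, and KHR tumours 1 to 3 lie near the line at background.

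The rest of the prolactin family was almost silent in these tumours. Of 26 other family genes and receptors listed, 22 had a probe and 19 of those were detected on 0 arrays, prolactin (Prl) and growth hormone (Gh) among them. Prl7a1, a placental member, and Ghr, the growth hormone receptor, passed the filter, with differences of 0.03 and -0.05 log2 units between KHR-NICD and KHR. Limma called 0 of them, and 0 had an unadjusted p under 0.05, a threshold that 13.2% of all tested probes passed. That share is the background for each such count in the lists that follow.

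Genes that mark the placental cells known for proliferin were mostly absent as well. Of 9 trophoblast genes with a probe, 6 were detected on 0 arrays, namely Cdx2, Ctsq, Hand1, Plac1, Psg17 and Tpbpa, the last a marker of spongiotrophoblast. Tfap2c, Elf5 and Ascl2 passed the filter, and of these Tfap2c and Elf5 are also made by epithelia outside the placenta. Limma called 0 of the 3, with 0 at an unadjusted p under 0.05.

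Markers of the labelled tissue were plain. All 8 keratinocyte genes, among them Krt5, Krt14 and Trp63, passed the filter, and their mean level was 11.6 to 12.1 log2 units over the 12 tumours. It was 11.59 to 11.90 in KHR tumours 1 to 3 and 11.96 to 12.06 in KHR tumours 4 to 6, parting only at 11.90 against 11.96. In KHR-NICD tumours it was 11.69 to 11.90. Krt17 alone of the 8 ran the other way, averaging 14.22 in KHR tumours 1 to 3 and 14.19 in KHR tumours 4 to 6. The share of all probes that separate these sets of KHR tumours was not counted, so nothing is read from the separation. The part of this keratinocyte difference in the proliferin levels was not tested. Limma called 0 of the 8, with 1 at an unadjusted p under 0.05, near the share of all probes, Dsg3, a desmosomal cadherin, at -0.68 log2 units (adjusted p = 0.126).

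The receptor through which proliferin acts was present in every tumour. Igf2r was detected on all 12 arrays, with a mean of 9.32 log2 units in KHR and 9.09 in KHR-NICD tumours, a difference of -0.23 (limma adjusted p = 0.239). Of the 5 genes in this list, Igf2r included, 4 passed the filter and limma called 0. Igf2r was the 1 gene with an unadjusted p under 0.05, a threshold that 13.2% of all probes passed. The median difference of the 4 was -0.11, against 0.01 for all probes. The others were Plaur, the urokinase receptor, at -0.24 (adjusted p = 0.647), Igf2 at 0.07 and M6pr, the cation-dependent mannose 6-phosphate receptor, at 0.02. The r of this Igf2r probe to the Prl2c3 probe was 0.01 over 12 tumours and 0.564 over the 9 tumours other than KHR 1 to 3. A second Igf2r probe gave 0.360 and 0.581.

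Factors known to control the proliferin promoter were expressed, and none passed the test. Of 12 AP-1 and steroid receptor genes listed, 8 passed the filter, limma called 0, and 4 had an unadjusted p under 0.05, against 13.2% of all probes. The 4 were Junb at -0.36 log2 units (adjusted p = 0.195), Fosl1 at -0.66 (adjusted p = 0.319), Jun at 0.42 (adjusted p = 0.339) and Atf3 at -0.52 (adjusted p = 0.366). The median difference of the 8 was -0.27, against 0.01 for all probes. The mean level of the 8 was 7.87 ± 0.11 (SD, n = 3) in KHR tumours 1 to 3 and 8.33 ± 0.08 (SD, n = 3) in KHR tumours 4 to 6, and it was 7.71 to 8.22 in KHR-NICD tumours. KHR tumours 4 to 6 were the highest here by a thin margin, with 8.23 as their lowest value. The share of all probes with such a separation was not counted, and nothing is read from it. Jun averaged 8.13 in both sets of KHR tumours, and Junb 11.92 and 11.91, while the other kept genes of the list were higher in KHR tumours 4 to 6. The r of Jun to the Prl2c3 probe was -0.03 over 12 tumours and -0.858 over the 9 tumours other than KHR 1 to 3. Nr3c1, the glucocorticoid receptor, was detected on 1 of 12 arrays. The part of these genes in the proliferin levels was not tested.

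Growth factors and their receptors, which induce proliferin in fibroblasts, also gave 0 calls. By the brightest kept probe of each gene, 9 of the 15 genes listed passed the filter, with a median difference of -0.04. Of these 1 had an unadjusted p under 0.05, near the share of all probes, Fgfr3, at 0.53 log2 units (limma adjusted p = 0.273). Fgfr3 was detected on 1 KHR and 6 KHR-NICD arrays, so it passed the filter only through the tumour type where it was higher. Its mean levels were low, at 5.13 in KHR and 5.66 in KHR-NICD, and its other probe was detected on 0 arrays. Fgf2, Fgfr1, Hgf and Met were detected on 0 arrays. The other named members, Pdgfb, Fgfr2 and Pdgfa, differed by -0.23, -0.20 and -0.18, with adjusted p of 0.442, 0.464 and 0.557. The brightest Egfr probe differed by -0.09. Its dimmer kept probes differed by -0.31 and -0.36, each with an unadjusted p under 0.05 (limma adjusted p = 0.208 and 0.333).

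Endothelial genes, of interest because proliferin acts on these cells, gave 0 calls among 9 of 12 that passed the filter, with a median difference of -0.13. The 1 gene at an unadjusted p under 0.05, again near the share of all probes, was Vwf, von Willebrand factor, at 0.58 log2 units (adjusted p = 0.229). Flt1, Tek and Robo4 differed by -0.20, -0.21 and -0.25, with adjusted p of 0.469, 0.503 and 0.643. Their mean level was 7.18 to 7.71 in KHR tumours 1 to 3 and 7.51 to 7.96 in KHR tumours 4 to 6, which overlap.

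The mean levels of skeletal muscle and hair follicle genes were higher in KHR tumours 1 to 3 than in KHR tumours 4 to 6. The share of all probes that part these sets was not counted, and nothing is read from the separation. The mean level of 7 of 8 skeletal muscle genes was 8.38 to 9.55 log2 units in KHR tumours 1 to 3, 6.55 to 7.70 in KHR tumours 4 to 6 and 6.77 to 8.90 in KHR-NICD tumours. Ckm, muscle creatine kinase, averaged 8.91 in KHR tumours 1 to 3 and 5.77 in KHR tumours 4 to 6. The mean level of 5 of 8 hair follicle genes was 9.11 to 10.12 in KHR tumours 1 to 3 and 6.82 to 8.29 in KHR tumours 4 to 6. In KHR-NICD tumours it was 7.02 to 7.03 with Eif2s3y and 7.76 to 8.86 without it. Msx2 of that list was detected on 0 arrays. The r of the hair follicle genes to the Prl2c3 probe was -0.805 to -0.722 over 12 tumours. Over the 9 tumours other than KHR 1 to 3 it was -0.464 to -0.200. For the muscle genes r was -0.855 to -0.401 over 12 and -0.760 to -0.011 over 9. Limma called 0 of these genes between the tumour types, with 0 at an unadjusted p under 0.05. In bulk tissue fewer cells of a type and less RNA per cell cannot be told apart, and the part of tissue makeup in the proliferin levels was not tested.

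Fibroblast genes differed in both directions between these sets of KHR tumours. Dcn, the matrix proteoglycan decorin, averaged 11.66 log2 units in KHR tumours 1 to 3 and 10.34 in KHR tumours 4 to 6, with r of -0.731 to the Prl2c3 probe over 12 tumours. Thy1 averaged 9.77 and 8.77, with r of -0.812, and Lum, lumican, 7.50 and 6.49, with r of -0.382. Col1a1, a chain of type I collagen, ran the other way, at 8.06 and 8.72, as did Col1a2, at 5.38 and 5.71. The mean level of 7 fibroblast genes was 7.61 to 8.09 in KHR tumours 1 to 3 and 7.17 to 7.81 in KHR tumours 4 to 6. Between the types, 3 of the 7 had an unadjusted p under 0.05, against 13.2% of all probes, with 0 called by limma. These were Lum at 0.80, Col3a1 at 0.55 and Col1a2 at 0.44 log2 units, with limma adjusted p of 0.271, 0.236 and 0.342. All were higher in KHR-NICD, as were 6 of the 7 genes. That of 3 of 7 macrophage genes was 6.99 to 7.64 in the first set and 6.66 to 6.97 in the second. That of 3 of 5 neutrophil genes was 11.10 to 11.15 and 11.19 to 11.25. The higher neutrophil mean in KHR tumours 4 to 6 came from Csf3r alone, which averaged 5.79 and 6.27. S100a8 and S100a9 ran the other way, at 14.21 and 14.19 and at 13.39 and 13.21. The fibroblast ranges overlapped, while the macrophage and neutrophil ranges did not, the macrophage ones parting only at 6.97 against 6.99. The share of all probes that separate these sets of KHR tumours was not counted, and nothing is read from the separation. Limma called 0 macrophage and 0 neutrophil genes, with 0 at an unadjusted p under 0.05.

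To place the proliferin pattern among other genes, each of 11720 other kept probes was compared with the Prl2c3 probe over the 12 tumours. The measure was Pearson's r, given as a description, since the tumours share the split of the KHR group and a gene that differs between KHR tumours 1 to 3 and 4 to 6 will score high. The median r was 0.05, 32 probes had r over 0.85 and 60 had r under -0.85, and the Prl2c4 probe was the most alike.

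Among named genes the highest r was that of Naca, a subunit of the nascent polypeptide-associated complex at the ribosome, at 0.922. It averaged 10.20 log2 units in KHR tumours 1 to 3, 10.75 in KHR-NICD and 10.99 in KHR tumours 4 to 6, and over the 9 tumours other than KHR 1 to 3 its r was 0.816. A second Naca probe gave r of 0.884 and another one -0.393. Parp1, a DNA damage sensor that builds poly(ADP-ribose), had r of 0.906 over 12 tumours and 0.854 over 9, with levels of 9.08, 9.37 and 9.58 in the same order of sets. Its other kept probe gave 0.725.

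The mitotic kinesins Kif4 and Kif15 both had r of 0.898, and over the 9 tumours it was 0.710 for Kif4 and 0.522 for Kif15. Kif4 averaged 6.69 in KHR tumours 1 to 3, 7.26 in KHR-NICD and 7.53 in KHR tumours 4 to 6, and its other kept probes gave r of 0.836 and 0.668. Siah1b, a ubiquitin ligase, had r of 0.883 over 12 tumours and 0.810 over 9, and its other kept probe gave 0.718. Mrps10, a mitochondrial ribosomal protein, and Thyn1 each had r of 0.883, which became 0.578 and 0.708 over 9. Sec22a, a vesicle transport protein, had r of 0.893 and 0.607, and its other kept probe gave 0.372.

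The lowest r among named genes was that of Vdr, the vitamin D receptor, at -0.934 over 12 tumours and -0.778 over 9. It averaged 10.33 in KHR tumours 1 to 3, 9.88 in KHR-NICD and 9.58 in KHR tumours 4 to 6, and its other kept probes gave r of -0.903 and -0.730. Aplp2, a protein of the amyloid precursor family, had r of -0.930 and -0.795, with levels of 13.06, 12.63 and 12.39. Psme1, an activator subunit of the proteasome, had r of -0.920 and -0.695, and its other kept probe gave -0.755. Slc44a2, a choline transporter-like protein, had r of -0.907 and -0.718, but its other kept probes gave only -0.07 and -0.09. The range of all these genes over the tumours was far smaller than that of the proliferin probes, and limma called 0 of the 12 between the tumour types.

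**Figure D5:**
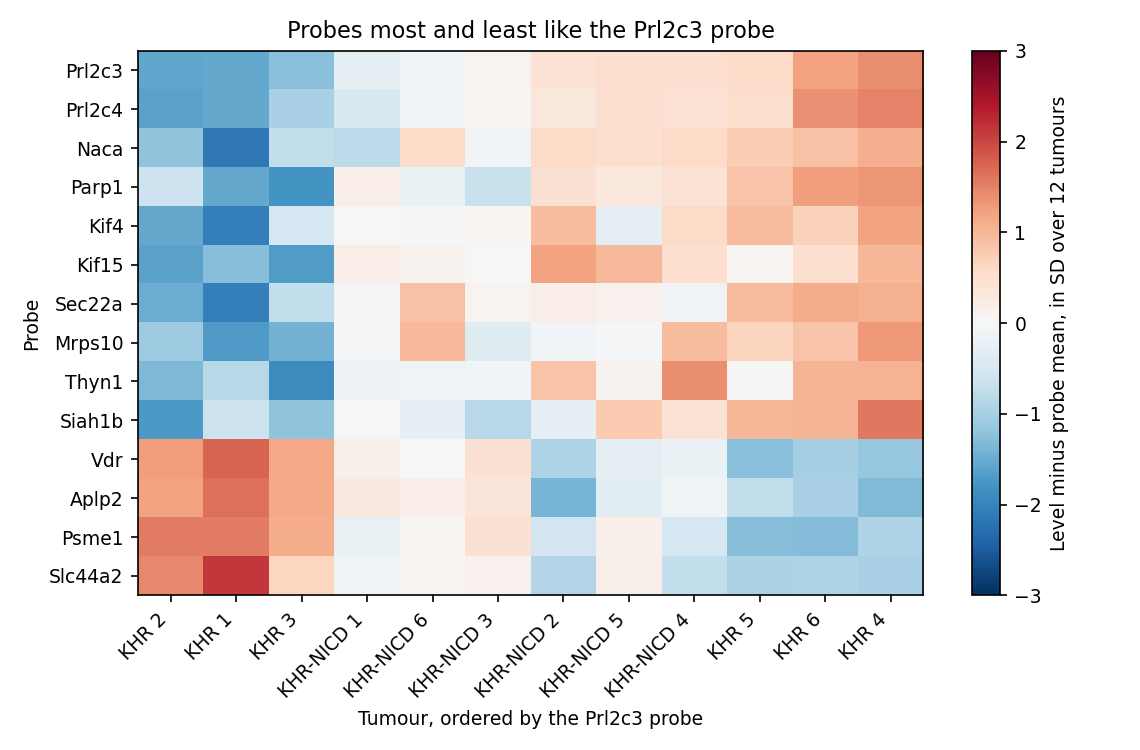
Levels of the Prl2c3 and Prl2c4 probes and of the 12 named genes most and least like Prl2c3, in each tumour, as the distance from the probe's mean in units of its SD over 12 tumours (colour scale). Tumours are ordered by the Prl2c3 probe, from KHR tumour 2 to KHR tumour 4, and the 4 lowest rows, from Vdr to Slc44a2, run the other way.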

How the data were processed

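RNA of 12 mouse oral tumours, 6 KHR and 6 KHR-NICD by the labels, was measured on Illumina MouseRef-8 v2 arrays. GenomeStudio and Partek appear in the submitters' processing notes, without versions, and no other upstream step is stated. The first table that the authors deposited holds, per the file headers, a mean bead intensity per probe, not normalized between arrays. Beside it they deposited a detection p-value, a bead number and a bead standard error per probe. A second table the authors deposited holds processed intensity, with column medians of 16.4 to 16.7 and some values below 0; its centring and exact scale are unknown, and it served as an alternative only.

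Signals were corrected and quantile normalized to log2 values by the neqc function (limma 3.58.1, R 4.3.3), with background inferred from detection p-values and an offset of 16. Probes with detection p under 0.05 on at least 6 of 12 arrays were kept, 11721 in all, 11044 of them with a gene. In the platform annotation 23978 probes had 1 gene, 0 had several and 1719 were not listed. Arrays had a median signal of 140 to 178 units, 43.6% to 48.1% of probes detected and 33.0 to 37.4 beads per probe on average. The number of arrays limits the precision.

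KHR-NICD was compared with KHR over all kept probes by lmFit and eBayes with Benjamini-Hochberg adjustment at 0.05 and no block. For lists, the brightest kept probe of each gene was used. Agreement of probes was tested by permutation with SciPy 1.17.1, with 1e+05 resamples or exactly. Members and lists were chosen with earlier results of these data known. Named genes were all proliferin probes, the 8 most and 4 least like Prl2c3 among kept probes with a gene, and Eif2s3y and Xist. From the prolactin family, receptor, regulator, growth factor, trophoblast and endothelial lists, up to 4 kept genes were named by smallest p. Egfr was added for its other probes. In the keratinocyte, muscle, hair follicle and fibroblast lists the named genes did not all follow that rule, and they serve as examples only. The fit was checked on simulated data. No genome build is named in the files, so coordinates are RefSeq's. Same-numbered tumours were checked for pairing: 2 of 6 pairs had a correlation of deviations over 0.1, with a range of -0.20 to 0.44, so the numbers were not taken to pair tumours.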

Additional observations from a re-analysis of the deposited data

Results flagged for a closer look

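The difference between KHR-NICD and KHR tumours ran in opposite directions in tumours without and with Eif2s3y signal, with every tumour of each type on its own side. For Prl2c3 it was 2.495 log2 units without Eif2s3y (3 KHR and 4 KHR-NICD tumours) and -1.414 with it (3 KHR and 2 KHR-NICD tumours). For Prl2c4 it was 1.954 and -1.436 in the same sets. Among all tested probes, 7.44% had KHR-NICD higher without overlap in tumours without Eif2s3y. With Eif2s3y, 22.9% had KHR-NICD lower without overlap, and 1.05% met both orders. In the set with Eif2s3y, KHR tumour 5 lay only 0.10 log2 units above KHR-NICD tumour 4 for Prl2c3. The difference between these sets was not tested, since the genes were chosen from this contrast.

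Sec22a stood out in KHR-NICD tumour 6, at 6.716 log2 units against 6.542 in the nearest of its group, a gap of 0.704 of the group's range. It was the 1 flag among 30 groups of 6 checked, and chance flags about 1 in 20.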

How the results depend on the processing

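The agreement of the Prl2c3 and Prl2c4 probes held under all 8 alternatives, with r of 0.987 to 0.995. The difference between KHR-NICD and KHR depended on the tumours used. For Prl2c3 it was 2.50 in tumours without Eif2s3y alone and -1.41 in tumours with it alone, and for Prl2c4 1.95 and -1.44. The other 11 alternatives were set against 1 pooled SD within tumour types, 1.51 for Prl2c3 and 1.31 for Prl2c4. That SD exceeds the main differences of 0.57 and 0.30, so a lost or reversed difference can still lie within it. All 11 lay within 1 SD of the main value, at -0.19 to 1.11 for Prl2c3 and -0.34 to 0.84 for Prl2c4. The lowest of these came from array weights, which turned the sign of both, and without background correction the Prl2c4 difference was -0.04. Leaving out 1 tumour at a time gave 0.17 to 1.04 for Prl2c3 and -0.07 to 0.70 for Prl2c4, which fell below 0 without KHR tumour 1 (-0.05) or KHR tumour 2 (-0.07).

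The count of called probes, 8, is unstable. It was 14 without background correction, 14 with an offset of 50, 14 with the authors' processed values plus 50 (chosen after seeing the data), 31 with median centring (3 higher and 28 lower, against 3 and 5), 238 with Eif2s3y detection as a covariate, 125 with array weights and 17 with the brightest probe per gene. It was 1 in tumours without Eif2s3y, the call by which the genes were chosen, and 0 in tumours with it, where 2935 probes had an unadjusted p under 0.05. Leaving out 1 tumour gave 1 to 17: 17 without KHR 1, 1 without KHR 3 or KHR-NICD 2, 2 without KHR 6, and 5 without KHR-NICD 5 or 6. With the replicate number as a block limma called 0 probes, with 1485 at an unadjusted p under 0.05, and the proliferin differences stayed at 0.57 and 0.30. The cause of these shifts was not tested. The labels give no slide or batch, so neither was run as a block. The 9 tumours, the 6 KHR-NICD tumours and the offset of 50 on processed values were chosen after seeing the data.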

Other observations

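Apart from the proliferin probes, 9 probes had every KHR-NICD tumour between KHR tumours 1 to 3 and KHR tumours 4 to 6. They were chosen after their values were seen, and 2 of them have no listed gene. Klra4, a natural killer cell receptor of the Ly49 family, averaged 4.97 log2 units in KHR tumours 1 to 3, 6.03 in KHR-NICD tumours and 7.39 in KHR tumours 4 to 6, and was detected in 8 of 12 tumours. Wnt3a, a secreted Wnt ligand, averaged 7.15, 7.57 and 7.99 in the same order. Defb14, an antimicrobial beta-defensin of epithelia, averaged 14.07, 14.33 and 14.49. Prr7 averaged 6.88, 7.48 and 7.96, and Dnm1l, the GTPase of mitochondrial fission, 6.83, 7.15 and 7.44. H3c6, a histone gene, averaged 8.77, 9.05 and 9.51. The widest of the 9 was an unnamed probe, at 6.29, 8.14 and 9.33. The remaining named gene, Sec22a, averaged 6.14, 6.54 and 6.76.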
